A study of Homo sapiens with 20 samples.

Results

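RUNX1 binding was measured at 31 peaks around 10 genes that encode epigenetic regulators recurrently mutated or rearranged in myeloid leukemia. The genes are DNMT3A, TET2, IDH1, IDH2, ASXL1, EZH2, BCOR, KDM6A, KMT2A and MLLT3. All peaks of the RUNX1 count table lying within 50 kb of the RefSeq span of one of these genes on GRCh38 were taken, which gave 31 of 26642 peaks. They belonged to 9 genes, and no peak of the table lay within 50 kb of KDM6A. Peaks within 1 kb of either end of the span were called gene-end peaks (7), peaks overlapping the span farther from both ends intragenic (13), and peaks outside the span distal (11).

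RUNX1 chromatin immunoprecipitation with sequencing (ChIP-seq) was done in THP-1, a long-established line of human monocytic leukemia cells. The knockdown cells carried an inducible shRNA against PU.1 and the control cells an inducible scramble shRNA, and doxycycline induced the cassette in both. Each genotype had 6 RUNX1 libraries, made from separate immunoprecipitations of cell line replicates in 2 experimental rounds called batches. The controls were split evenly, 3 in each batch, and the knockdown libraries 2 in batch 1 and 4 in batch 2. The paper's PU.1 blot of these cells shows 1 knockdown line and 1 control line, and it names no further lines for the libraries. Other differences between the lines, or effects of the shRNA on other targets, cannot be told apart from loss of PU.1. The other 8 of the 20 samples were IgG immunoprecipitations and are not analysed here.

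Control libraries held 630247 to 1199004 reads in peaks and knockdown libraries 938745 to 1719840, of which 699 to 1386 and 914 to 1829 fell into the 31 peaks. A typical peak therefore rested on few reads, with a median of 18 to 34 per control library and 26 to 48 per knockdown library. RNA and protein were not measured by this assay, so neither the level of PU.1 nor the expression of the 10 genes could be read from these libraries. Fewer cells with RUNX1 at a site and less RUNX1 per cell cannot be told apart in bulk chromatin.

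RUNX1 is a DNA-binding factor of blood stem and myeloid cells, and PU.1 is an ETS factor that partners with it at many myeloid enhancers. The 10 genes act on the marks that such enhancers and promoters carry. DNMT3A methylates cytosine in DNA and TET2 oxidises methylcytosine, a reaction that needs the metabolite made by IDH1 and IDH2. EZH2 is the catalytic subunit of Polycomb repressive complex 2 (PRC2), which places a repressive methyl mark on histone H3, and KDM6A removes that mark. ASXL1 belongs to the PR-DUB complex that removes ubiquitin from histone H2A, and BCOR to the PRC1.1 complex that adds it. KMT2A methylates histone H3 at active genes and MLLT3 is a subunit of the elongation machinery. THP-1 cells are known to carry a fusion of KMT2A with MLLT3, and reads from fused and intact copies of these loci are not separated in the counts.

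Promoters of 4 genes are shown because their gene-end peaks cover the contrasts found here. EZH2 had a lost peak whose listed promoter windows held neither motif, and ASXL1 a lost peak with a RUNX motif in the window shown. IDH1 had a peak that passed no test, with both motifs in the window shown. MLLT3, a fusion partner, had a peak that passed no test. Each window runs 5′ to 3′ on the strand of the gene, from 250 bases before to 50 after a listed start. The sequences are as RefSeq gives them on GRCh38.p14. The EZH2 window is chr7:148884242-148884541 on the minus strand, the ASXL1 window chr20:32358081-32358380 on the plus strand, the IDH1 window chr2:208255022-208255321 on the minus strand and the MLLT3 window chr9:20622450-20622749 on the minus strand. Capitals mark the RUNX core TGTGGT and the PU.1 core GAGGAA, both searched on both strands.
EZH2: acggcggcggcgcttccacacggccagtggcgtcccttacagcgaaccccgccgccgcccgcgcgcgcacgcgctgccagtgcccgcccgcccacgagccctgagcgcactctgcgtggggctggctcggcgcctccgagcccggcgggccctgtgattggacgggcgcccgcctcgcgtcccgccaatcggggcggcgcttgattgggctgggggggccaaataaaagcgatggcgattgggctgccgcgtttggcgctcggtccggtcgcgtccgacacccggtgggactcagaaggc
ASXL1: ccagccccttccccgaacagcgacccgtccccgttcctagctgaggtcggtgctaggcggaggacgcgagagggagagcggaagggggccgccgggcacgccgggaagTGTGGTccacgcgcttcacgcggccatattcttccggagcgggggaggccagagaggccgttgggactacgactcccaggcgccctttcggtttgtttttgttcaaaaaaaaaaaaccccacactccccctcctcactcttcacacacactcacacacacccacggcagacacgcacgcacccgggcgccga
IDH1: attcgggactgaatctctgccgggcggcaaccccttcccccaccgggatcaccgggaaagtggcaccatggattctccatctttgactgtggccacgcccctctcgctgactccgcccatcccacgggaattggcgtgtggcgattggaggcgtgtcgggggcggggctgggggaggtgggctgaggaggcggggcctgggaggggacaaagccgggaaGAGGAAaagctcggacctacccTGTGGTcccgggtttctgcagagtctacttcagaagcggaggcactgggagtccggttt
MLLT3: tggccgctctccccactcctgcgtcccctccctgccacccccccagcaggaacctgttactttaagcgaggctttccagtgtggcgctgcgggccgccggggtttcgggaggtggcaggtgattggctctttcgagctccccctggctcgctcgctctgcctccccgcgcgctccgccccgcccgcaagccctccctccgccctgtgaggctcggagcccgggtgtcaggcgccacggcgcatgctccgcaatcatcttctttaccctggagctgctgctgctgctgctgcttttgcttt

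All 10 genes matched the promoter table, with 21 listed promoters, of which 11 overlapped one of the 31 peaks, at 6 genes. The RUNX core was found in 3 of these 11 windows, 2 overlapping ASXL1 windows that hold the same match and the IDH1 window shown. The PU.1 core was found in 2, both of IDH1. Among all 35116 listed promoters, 13.1% held the RUNX core and 27.9% the PU.1 core, and among the 7626 that lay inside any RUNX1 peak the shares were 12.6% and 28.2%. The listed windows that overlapped peaks of DNMT3A, EZH2, MLLT3 and BCOR held neither set of letters.

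RUNX1 binding differed between knockdown and control libraries at 9 of the 31 peaks, 3 gained and 6 lost, at 6 genes. A peak was called at a Benjamini-Hochberg adjusted p under 0.05 over all peaks and a fold change over 1.1 (DESeq2, batch as covariate). Of all 26642 peaks, 42.0% were called, 21.3% gained and 20.7% lost, so the share of called peaks around these genes (29.0%) was below that of the table. The median log2 fold change, knockdown over control, was -0.09 over the 31 peaks and -0.02 over all peaks. DNMT3A, TET2, ASXL1, EZH2, KMT2A and IDH2 each had at least 1 called peak, whereas none of the 7 peaks around MLLT3, IDH1 and BCOR was called. Each fold change was also centred on the median of the peaks in the 10 Mb around it. Then 10 peaks were called, and the split turned to 6 gained and 4 lost (41.7% of all peaks called, 22.1% gained and 19.6% lost). The median around each of the 31 peaks was negative, so centring could only move these fold changes upward.

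**Figure D1:**
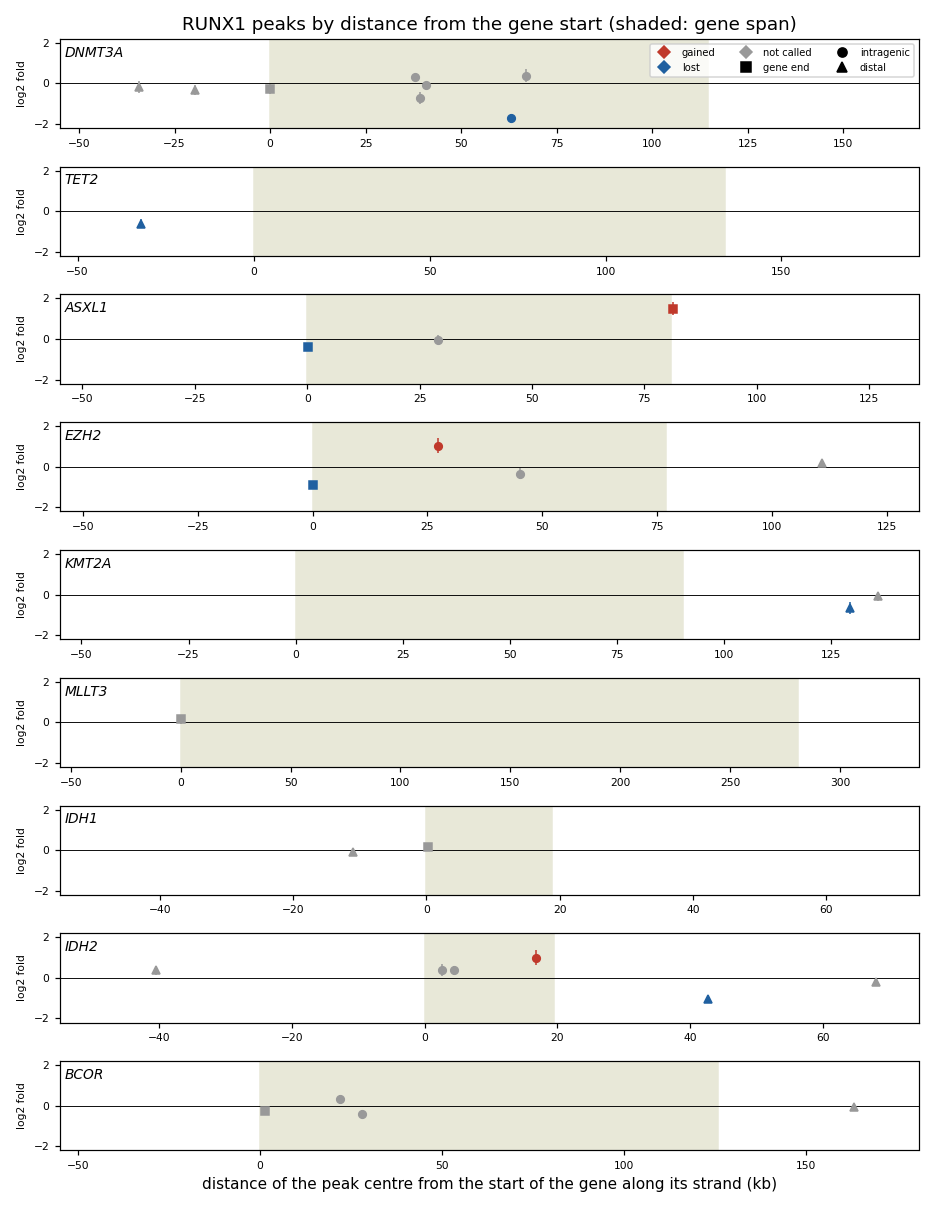
Each panel is 1 gene, with the distance of each peak centre from the gene start along its strand (kb, x axis) and the log2 fold change, knockdown over control (y axis, bars are SE, shading is the gene span). The called gains lay in EZH2, IDH2 and at the 3′ end of ASXL1, and TET2 and KMT2A had no peak inside the gene.

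The 3 gained peaks were weak in control cells, at control medians of 6.57 to 7.79 normalised counts (counts divided by the size factor of the library). The 6 lost peaks had control medians between 19.5 and 68.4. These levels are a description, since the control counts are part of the same contrast. The map of peaks by gene shows that no gained peak covered a gene start and that called gains and losses lay within the same locus at ASXL1, EZH2 and IDH2.

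Around DNMT3A, the de novo DNA methyltransferase, 1 of 8 peaks was lost, and it was the most strongly changed of the 31. This intragenic peak (chr2:25278866-25280038) lay with its centre 63.1 kb downstream of the gene start and 26551 bp from the nearest listed start. Normalised counts were 35.2, 53.3 and 69.4 (lowest, median, highest of 6) in control and 13.7, 15.0 and 19.8 in knockdown libraries. Every knockdown library lay below every control library. The log2 fold change was -1.72 ± 0.21 (SE, adjusted p = 4.5e-14, DESeq2), with -1.78 in batch 1 and -1.68 in batch 2, each called within its batch.

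The strongest DNMT3A peak behaved otherwise. It lay 40153 bp from the start in the same gene body (chr2:25301262-25302437) and held a mean of 99.6 normalised counts. Control libraries gave 79.3, 100.8 and 123.1 and knockdown libraries 84.9, 96.6 and 109.0, with overlapping groups. Its log2 fold change was -0.09 (95% interval -0.34 to 0.15, adjusted p = 0.587, DESeq2). The interval of the lost peak (-2.14 to -1.30) does not reach this range.

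The DNMT3A start peak (chr2:25342247-25342958) held 20.8, 30.9 and 57.2 normalised counts in control and 13.0, 26.0 and 39.5 in knockdown libraries, and these ranges overlapped. The log2 fold change was -0.28 (95% interval -0.73 to 0.18, adjusted p = 0.352, DESeq2). Intragenic peak 4, just beside the strongest peak, came closest to the threshold among the peaks not called (-0.71 ± 0.31, adjusted p = 0.0514), and edgeR's quasi-likelihood test put it past the threshold (adjusted p = 0.0298, where edgeR called 47.1% of all peaks). The neighbouring intragenic peak 5 pointed the other way (0.32 ± 0.16, adjusted p = 0.0901 with DESeq2 and 0.0406 with edgeR). Both distal peaks lay on the side of the neighbouring gene DTNB and were not called (-0.30 and -0.18).

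TET2, which starts the removal of DNA methylation, had no peak inside its span (chr4:105145875-105279803). Its single peak lay 31570 bp before the gene start between genes (chr4:105113653-105114305) and was lost. Control libraries held 28.8, 34.4 and 43.4 normalised counts and knockdown libraries 14.3, 23.6 and 28.3, without overlap between the groups. Binding fell by 0.61 ± 0.21 on the log2 scale (adjusted p = 0.0119, DESeq2). Neither batch alone passed the threshold (-0.46, adjusted p = 0.539, in batch 1 and -0.71, adjusted p = 0.0684, in batch 2), and without knockdown replicate 2 the adjusted p was 0.0598. The nearest other gene end, of LOC124900868, was 22957 bp away.

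IDH1 and IDH2 encode the cytosolic and the mitochondrial isocitrate dehydrogenase, whose leukemic mutants make a metabolite that blocks TET enzymes. Binding around IDH1 did not pass the test at either of its 2 peaks. The IDH1 start peak (chr2:208253965-208255767) covers both listed windows of the gene. The one shown above held both motifs, and the other (chr2:208254409-208254708) held 3 PU.1 cores and no RUNX core. Control libraries held 43.4, 51.2 and 80.6 normalised counts and knockdown libraries 54.6, 59.5 and 75.7, and the knockdown range fell within the control range. This gave a log2 fold change of 0.17 (95% interval -0.14 to 0.47, adjusted p = 0.411, DESeq2). The distal peak, over an end of the neighbouring gene PIKFYVE, gave -0.09 (95% interval -0.35 to 0.16, adjusted p = 0.607, DESeq2).

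Around IDH2, 2 of 6 peaks were called, in opposite directions. The lost peak (chr15:90059108-90060439) lay 22606 bp beyond the 3′ end of IDH2, within the neighbouring gene ZNF710. Its normalised counts were 33.0, 68.4 and 88.4 in control and 29.7, 31.3 and 34.2 in knockdown libraries. In batch 1 the controls read 88.4, 83.8 and 62.2 against 32.0 and 34.2 after knockdown. In batch 2 the controls read 33.0, 70.3 and 66.4 against 30.9, 29.7, 30.6 and 31.7. All knockdown libraries were below all controls of their batch, and control replicate 4 alone reached down into the knockdown range of the other batch. Over both batches the log2 fold change was -1.06 ± 0.17 (adjusted p = 2.0e-08, DESeq2), and each batch called it alone (-1.22 and -0.92).

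The gained IDH2 peak lay inside the gene toward its 3′ end (chr15:90085490-90086043). It held 3.72, 6.57 and 12.1 normalised counts in control and 9.13, 14.0 and 19.2 in knockdown libraries, with overlap. These came from 35 and 113 raw reads summed over the 6 libraries of each genotype. Raw reads are not scaled for depth, which was mostly greater in knockdown libraries. The fitted log2 fold change was 0.99 ± 0.38 (adjusted p = 0.0226, DESeq2). The call was lost without control replicate 2 or 6 or without knockdown replicate 2 or 4, with adjusted p values of 0.0576, 0.0599, 0.184 and 0.0587.

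The other 4 IDH2 peaks were not called. Intragenic peak 3 lay 367 bp from the listed IDH2 promoter start and gave 0.38 (95% interval -0.21 to 0.97). Peaks of the 10 Mb around IDH2 on chromosome 15 were shifted down as a whole, with a median log2 fold change of -0.25. Centred on that median, the lost peak stood at -0.81 and the gained one at 1.23, and 2 further IDH2 peaks were gained, intragenic peak 2 (0.61, adjusted p = 0.0219) and distal peak 3 (0.62, adjusted p = 0.0103). Before centring these stood at 0.37 and 0.37. What shifted the region was not tested.

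ASXL1, the PR-DUB subunit, had 3 peaks, of which the start peak was lost and the peak at its 3′ end gained. The 3′ peak (chr20:32439390-32440095) lay 71 bp beyond the last base of the gene, and 2964 bp from an end of NOL4L. Control libraries held 5.76, 7.79 and 12.1 normalised counts and knockdown libraries 14.0, 23.1 and 26.1, so every knockdown library exceeded every control. The log2 fold change was 1.50 ± 0.32 (adjusted p = 1.8e-05, DESeq2), from 40 raw reads in control and 172 in knockdown libraries, not scaled for depth. It was called in batch 1 (1.78) and in batch 2 (1.28) alone.

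The ASXL1 start peak (chr20:32357581-32359273), which covers the promoter shown above, gave 48.6, 58.6 and 87.1 normalised counts in control and 39.1, 41.8 and 55.7 in knockdown libraries, with overlap. Its log2 fold change was -0.38 ± 0.16 (adjusted p = 0.0402, DESeq2). This call stood near the threshold, and of the fits that left out 1 library only those without control replicate 2 or 4 kept it (adjusted p between 0.0165 and 0.150 over the 12 fits). Peaks of the 10 Mb around ASXL1 had a median of -0.21, and centred on it the start peak stood at -0.17 (adjusted p = 0.411). The intragenic peak of ASXL1 gave -0.03 (95% interval -0.44 to 0.38).

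At EZH2, the PRC2 methyltransferase, 2 of 4 peaks were called, the start lost and an intragenic peak gained. The start peak (chr7:148883117-148885407) spans both listed EZH2 promoters, including the window shown above. Control libraries held 36.4, 43.1 and 97.5 normalised counts and knockdown libraries 16.8, 26.8 and 43.5. The groups overlapped through 1 knockdown library of batch 1 at 43.5, and within batch 2 the 4 knockdown libraries (29.7, 19.2, 26.1 and 16.8) were all below the controls (36.4, 39.9 and 45.3). Binding at the start fell by 0.89 ± 0.21 on the log2 scale (adjusted p = 0.000163, DESeq2), with -0.94 in batch 1 and -0.85 in batch 2, of which batch 2 alone passed (adjusted p = 0.0191, against 0.0766). Of the 6 start peaks among the 31, this one and that of ASXL1 were lost. Control replicate 1 was the highest library at both (97.5 and 87.1). It was also the highest control at the starts of IDH1, BCOR and DNMT3A, but not of MLLT3. Without it the EZH2 call held and the ASXL1 call did not.

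The gained EZH2 peak lay in the gene body (chr7:148856846-148857343). Normalised counts were 2.60, 6.77 and 12.1 in control and 11.9, 13.3 and 17.8 in knockdown libraries, from 33 and 108 raw reads, not scaled for depth. Control replicate 4 alone reached the knockdown range. The peak rose by 1.04 ± 0.36 on the log2 scale (adjusted p = 0.0120, DESeq2). Neither batch alone passed the threshold (1.43, adjusted p = 0.233, in batch 1 and 0.80, adjusted p = 0.227, in batch 2, DESeq2).

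The densest of the 31 peaks was also at this locus. It lay 33443 bp beyond the 3′ end of EZH2 within CUL1 (chr7:148773047-148773940) and held 100.8 normalised counts per kb, at the 98.1 percentile of all peaks. In batch 1 the knockdown libraries (78.5 and 77.7) were below the controls (81.0 to 89.9), and in batch 2 they (103.3 to 112.8) were above (75.0 to 85.3). Fitted over both batches, it was 0.19 on the log2 scale (95% interval -0.05 to 0.44, adjusted p = 0.215, DESeq2), and centred on the regional median of -0.11 it was called gained (0.30, adjusted p = 0.0415). The difference between the batches in this effect was 0.53 and did not pass the test over all peaks (adjusted p = 0.9999, DESeq2).

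BCOR, the PRC1.1 subunit, had 4 peaks and no call. Its start peak (chrX:40174161-40177481) was the widest of the 31, at 3321 bp. Control libraries held 66.8, 89.8 and 104.0 normalised counts and knockdown libraries 61.4, 70.7 and 92.2, and the groups overlapped. The log2 fold change was -0.26 (95% interval -0.53 to 0.01, adjusted p = 0.118, DESeq2), and without control replicate 3 it passed (-0.34, adjusted p = 0.0354). The intragenic peaks of BCOR pointed in opposite directions (-0.39 and 0.31), the first being called without control replicate 5 (adjusted p = 0.0138). The distal peak between genes gave -0.05 (95% interval -0.34 to 0.23). KDM6A, also on chromosome X, had no peak to compare, which leaves RUNX1 binding there unmeasured by this table.

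KMT2A, the histone methyltransferase gene rearranged in THP-1 cells, had no peak inside its span (chr11:118436492-118526832) or at its ends. Both of its peaks lay beyond the 3′ end within IFT46. The nearer one (chr11:118565508-118566276) was lost. Control libraries held 13.9, 19.5 and 29.9 normalised counts and knockdown libraries 10.2, 11.2 and 18.5, with overlap. Its log2 fold change was -0.66 ± 0.28 (adjusted p = 0.0435, DESeq2). The fits that left out 1 library kept this call without control replicate 3 or 4 or knockdown replicate 4 and lost it in the other 9, at adjusted p values up to 0.170. The second peak, which reaches an end of ARCN1, gave -0.09 (95% interval -0.49 to 0.30).

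MLLT3, the fusion partner, had 1 peak in a span of 280831 bp, at its start (chr9:20622089-20623062). Control libraries held 18.8, 26.2 and 33.5 normalised counts and knockdown libraries 22.6, 28.7 and 34.7, in overlapping ranges. The fitted difference was 0.14 on the log2 scale (95% interval -0.29 to 0.57, adjusted p = 0.638, DESeq2). A loss or gain within that interval could not be told from no change.

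**Figure D2:**
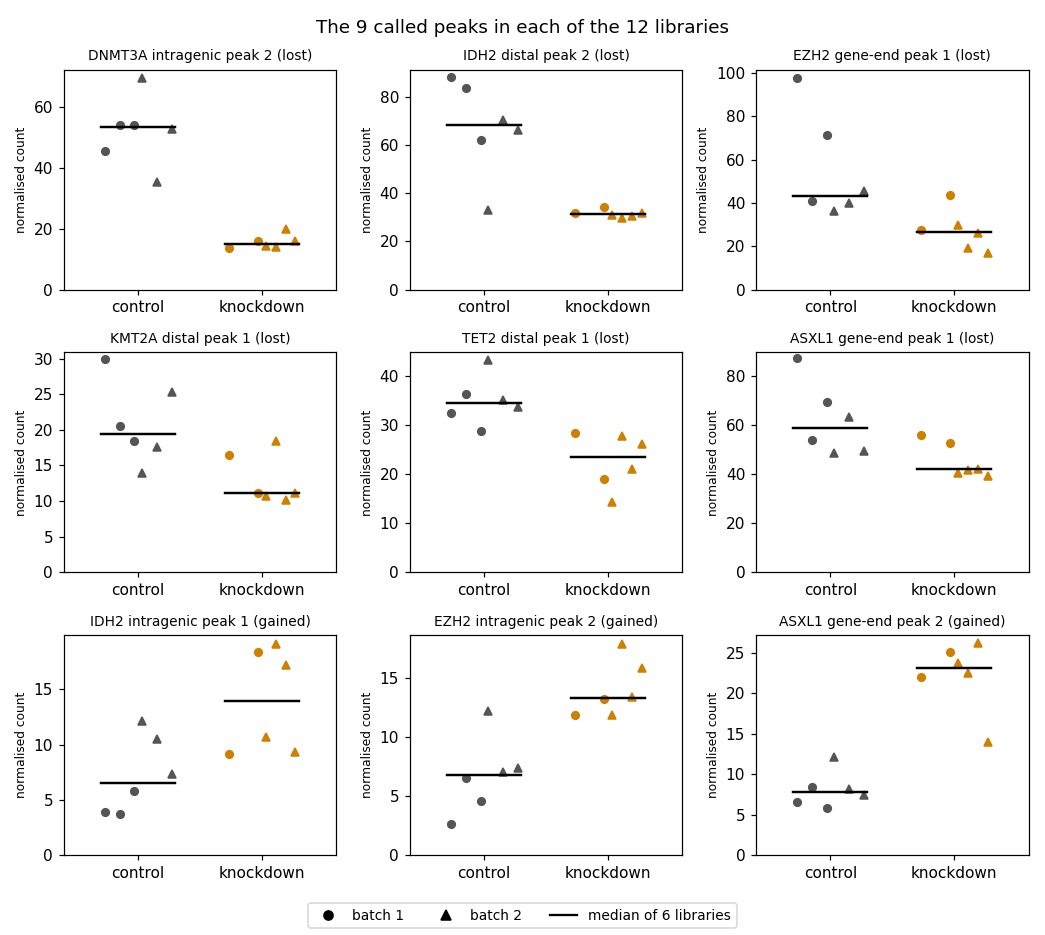
Normalised counts (y axis) of the 9 called peaks in each of the 12 libraries by genotype (x axis), with batch 1 as circles, batch 2 as triangles and the median of each genotype as a line. DNMT3A intragenic peak 2, TET2 distal peak 1 and ASXL1 gene-end peak 2 separated the genotypes in all 12 libraries.

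The plot of the 9 called peaks by library shows that 3 separated all control from all knockdown libraries, a pattern found at 23.3% of all peaks. Within both batches taken one by one, 4 of the 31 peaks did so, those 3 and IDH2 distal peak 2 (28.3% of all peaks).

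Gene-end, intragenic and distal peaks were then read apart. Relative to the 10 genes, the 7 gene-end peaks held 1 gain and 2 losses, the 13 intragenic peaks 2 gains and 1 loss, and the 11 distal peaks 3 losses and no gain. The median log2 fold change was -0.26 at gene ends, 0.31 in genes and -0.18 at distal peaks. Many distal peaks belonged to a neighbouring gene, since 3 lay at an end of another gene, 4 inside one and 4 outside any. To set them beside all peaks, the classes were taken relative to any protein-coding gene. The 10 peaks at an end of any gene then held 1 gain and 2 losses, where 25.2% of the 6496 such peaks in the table were called, 6.19% gained and 19.0% lost. The 17 intragenic peaks held 2 gains and 3 losses (46.7% of 10490 called, 25.9% gained and 20.8% lost), and the 4 distal peaks 1 loss, that of TET2 (46.6% of 6070 distal peaks within 50 kb of a gene called, 26.5% gained and 20.1% lost). Medians were -0.13, -0.03 and -0.18 in these 3 classes, against -0.17, 0.07 and 0.09 in the same classes of the table. With the limit for a gene end at 2.5 kb, the gained IDH2 peak counted as a gene-end peak. With counts this small, no class was set apart from another.

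**Figure D3:**
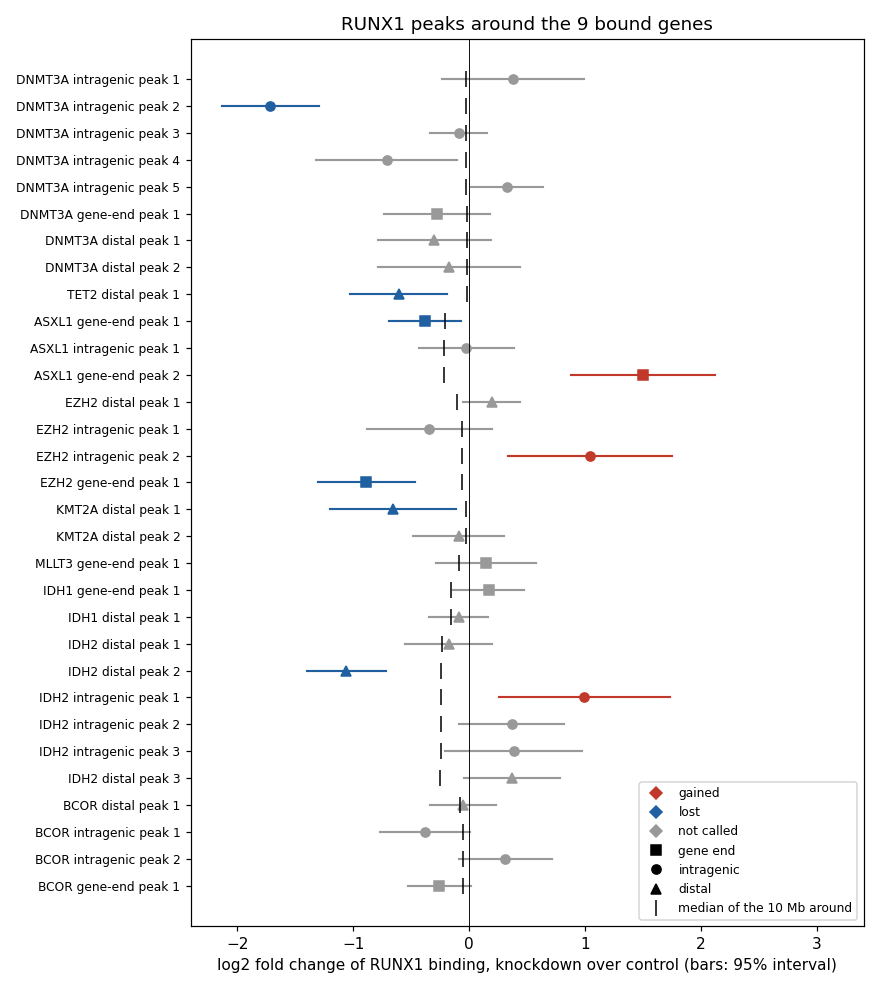
Log2 fold change of RUNX1 binding, knockdown over control (x axis), with its 95% interval for each of the 31 peaks (y axis), coloured by call and shaped by class, with a tick at the median of the 10 Mb around. The ticks lie left of 0 at all 31 peaks, farthest at IDH2 and ASXL1. The intervals of the called peaks span a wide range of precision.

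Precision differed between the peaks, with an SE from 0.12 at DNMT3A intragenic peak 3 to 0.38 at the gained IDH2 peak. The plot of fold changes with their intervals shows that the 3 gains had the broadest intervals. Across gene ends in control libraries, RUNX1 signal was highest at DNMT3A (mean of 47.3 normalised counts per kb of peak), followed by the ASXL1 start (36.6), IDH1 (32.4), BCOR (26.6), MLLT3 (26.4), EZH2 (24.1) and the ASXL1 3′ end (11.4). In knockdown libraries the order of mean density was DNMT3A (36.2), IDH1 (34.8), the ASXL1 3′ end (31.5), MLLT3 (28.9), the ASXL1 start (26.7), BCOR (21.9) and EZH2 (11.8). The ranges over the 6 libraries overlapped between neighbours throughout both orders. The EZH2 start peak was wide (2291 bp), and its density over all 12 libraries stood at the 2.28 percentile of all peaks.

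**Figure D4:**
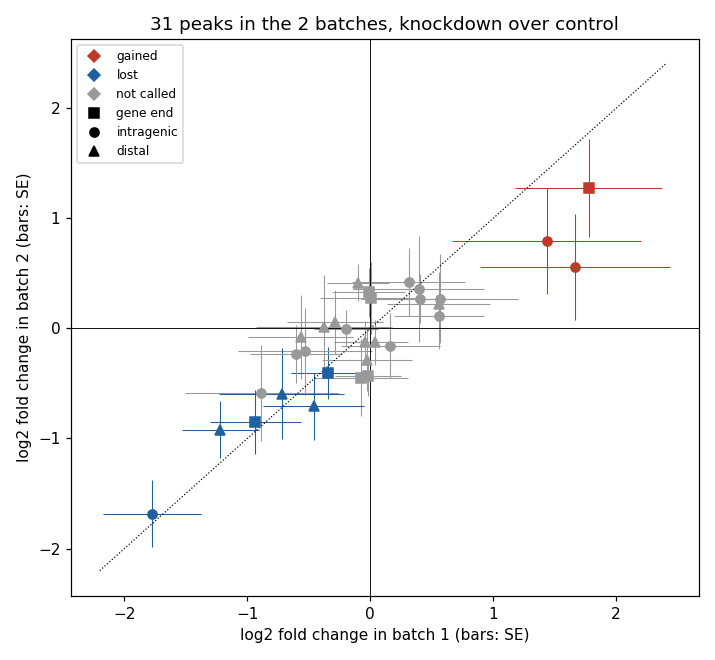
Log2 fold changes of the 31 peaks in batch 1 (x axis, 5 libraries) and batch 2 (y axis, 7 libraries), with bars of 1 SE and a dotted line of equal values. All 9 called peaks lie in the same direction in both batches.

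The batches were fitted apart to see whether the changes recurred. In batch 1, 3 of the 31 peaks were called, 1 gained and 2 lost (12% of all peaks, 5.38% gained and 6.61% lost), the lost peaks of DNMT3A and IDH2 and the gained ASXL1 3′ peak. In batch 2, 4 were called, 1 gained and 3 lost (25.8% of all peaks, 12.8% gained and 13.1% lost), these and the EZH2 start peak. The sign was shared between the batches at 25 of 31 peaks, including all 9 called ones, and the fold changes of the batches correlated across the 31 peaks (Pearson's r 0.882, Spearman's rho 0.800, against 0.859 and 0.818 over all peaks). These are values across peaks of the same libraries and not across replicates. The plot of the 2 batches shows the 3 gains farther from 0 in batch 1 than in batch 2. None of the 31 peaks passed the DESeq2 test of the genotype by batch product after adjustment, and 1 did before it, the distal EZH2 peak within CUL1 (unadjusted p = 0.0398, DESeq2). Over all peaks the share was 0.00% adjusted and 2.51% at an unadjusted p under 0.05.

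A wider list of 49 genes, made of partners and paralogs of the 10, gave 201 further peaks within 50 kb of 47 genes. Of these, 35 were gained and 31 lost (32.8% called, against 42.0% of all peaks). The PRC2 partners of EZH2 held 7 gains and 10 losses among 30 peaks, and the KMT2A partners 11 gains and 9 losses among 62. DNA methylation genes held 4 gains and 2 losses among 29 peaks, and the PR-DUB and PRC1.1 partners of ASXL1 and BCOR 2 gains and 5 losses among 35. Cohesin genes had 2 gains and 1 loss among 7 peaks, histone demethylases 2 gains among 9, acetyltransferases and readers 2 gains and 1 loss among 13, and the other chromatin regulators 5 gains and 3 losses among 16.

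The strongest gain by adjusted p was a distal peak 22162 bp before SMC3, a cohesin subunit, which went from 14.6 ± 4.25 to 67.8 ± 9.56 normalised counts (mean ± SD, n = 6 each, log2 fold change 2.12, adjusted p = 9.0e-21, DESeq2). Next, with adjusted p up to 5.9e-08 (DESeq2), came peaks of JARID2 and DOT1L, given as control to knockdown means in normalised counts. The peak of JARID2, a PRC2 cofactor, was intragenic (12.8 to 37.0). That of DOT1L, the methyltransferase recruited by KMT2A fusions, lay 30781 bp outside the gene span, nearest to OAZ1 (89.7 to 139.9). The losses with the smallest adjusted p (1.6e-10 to 2.5e-06, DESeq2) began with a peak 2999 bp beyond KMT2B, over IGFLR1 and U2AF1L4 (57.4 to 24.2). Next were a peak 33209 bp before RBBP7, a histone-binding PRC2 subunit (19.4 to 3.53), and a peak 49590 bp beyond TET3, nearest to MOB1A (68.4 to 37.1). The last lay 49860 bp beyond NSD1, over an end of LMAN2 (76.4 to 46.6). Of these 7 peaks, JARID2 alone was within its gene, and 2 of the others overlapped a different gene.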

How the data were processed

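RUNX1 ChIP-seq of THP-1 cells was compared between 6 control and 6 knockdown libraries, grouped by the labels. The deposited table holds unnormalised read counts, 1 per peak and library, which the authors made by aligning with bowtie2, removing duplicates and non-primary chromosomes, calling peaks with macs2 per condition and batch, keeping peaks reproducible between batches, merging them and counting with featureCounts. The deposited table also gives peak width in bp, an other value used only for densities. The peaks come from the same libraries that are compared. The methods name a mouse build and the labels also GRCh38. The build was taken as GRCh38, since 24.4% of peaks lay within 1 kb of a protein-coding gene end of GRCh38.p14, against 5.48% to 7.58% after shifting all peaks.

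Counts were tested with DESeq2 1.42.0 in R 4.3.3 (median-of-ratios size factors, batch as covariate, adjusted over all 26642 peaks), within each batch, and with a product of genotype and batch. Alternatives were edgeR 4.0.16, TMM and total-count scaling, no batch term, a replicate block, a minimum of 10 counts in every library, no independent filtering, other thresholds and windows, leaving out each library, and centring on the median of peaks within 5 Mb on either side. The script was tested on simulated data. Libraries of 1 genotype differed by more than sampling noise. Control replicate 1 stood farthest from the other controls, with a chi-square per degree of freedom of 2.00 to 2.24 per pair. Pairs of the other controls gave 1.29 to 1.50, and pairs of knockdown libraries 1.31 to 2.21. The named peaks were the strongest gene-end peak and called peaks of each locus, and in the wider list the 4 smallest adjusted p in each direction, of which 1 is not reported here. Other peaks given with values were chosen after their values were seen. The members, lists and tests were chosen with earlier results of these data known. P-values measure the spread between these libraries. The peaks' own sequences were not used here.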

Additional observations from a re-analysis of the deposited data

Results flagged for a closer look

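Of 62 groups of 6 libraries (31 peaks in 2 genotypes), 6 held a library whose normalised count stood apart from the other 5 by Dixon's test. Chance flags about 1 in 20 groups, which is 3.1 of 62. At the lost DNMT3A intragenic peak 2, knockdown replicate 5 was highest at 19.8, against 13.7 to 15.8 in the others, and still below every control. At the DNMT3A start peak, control replicate 1 read 57.2, against 20.8 to 31.6. At DNMT3A distal peak 2, knockdown replicate 2 read 19.8, against 9.13 to 13.1. At ASXL1 intragenic peak 1, control replicate 1 was lowest at 19.5, against 31.2 to 38.0. At the gained ASXL1 3′ peak, knockdown replicate 6 was lowest at 14.0, against 21.9 to 26.1, and still above every control. At KMT2A distal peak 2, knockdown replicate 3 read 43.9, against 25.6 to 32.4.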

How the results depend on the processing

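Over 610 alternative fits of the 31 peaks, 555 kept direction and side of the threshold, 31 lost a call, 13 gained one and 11 changed sign. The calls at DNMT3A intragenic peak 2, ASXL1 gene-end peak 2, IDH2 distal peak 2 and both EZH2 peaks held in all of these fits that tested them. The fits of each batch alone are not among these. Of the 31 peaks, 9 were called in the main analysis, and 5 with at least 10 counts in every library (fewer peaks tested, 21). No gained peak of the main analysis reached that minimum, so the 1 gain among those 5 was at another peak. At an adjusted p under 0.01, 4 were called, and 4 at a fold change over 2. When 1 library was left out, 5 to 9 were called, with 5 without knockdown replicate 2. In the wider list, 66 peaks were called, 42 with the count minimum, 13 at a fold change over 2 and 49 to 66 with 1 library left out. The share of all peaks called under these other settings is not given here. Whether a fall in calls is particular to these loci therefore cannot be read from these counts. In batch 1, edgeR called 6 peaks and leaving out 1 library 0 to 2, with 0 without either knockdown replicate (1 knockdown library then remained, assumed to vary like the controls). In batch 2, edgeR called 7 and leaving out 1 library 1 to 4, with 1 without control replicate 5 or 6 and 2 without knockdown replicate 4. The genotype by batch product gave 0 calls among the 31 peaks by DESeq2 and by edgeR.

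The sign turned only at peaks that were never called. With the count minimum, ASXL1 intragenic peak 1 (0.042) and BCOR distal peak 1 (0.014) turned to higher. Centred, both turned (0.19 and 0.024), as did IDH1 distal peak 1 (0.069) and IDH2 distal peak 1 (0.058). With 1 library left out, DNMT3A distal peak 2 ranged from -0.33 to 0.027 (turned without knockdown replicate 1), ASXL1 intragenic peak 1 from -0.12 to 0.065 (turned without control replicate 3 or 6 or knockdown replicate 5) and BCOR distal peak 1 from -0.13 to 0.026 (turned without control replicate 5). Apart from construction, the cause was not tested.

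The labels give replicate numbers, but same-numbered libraries did not deviate together (r from -0.0911 to 0.236 over 6 numbers, with replicate 3 in different batches), so the numbers do not pair the samples. With a replicate block, 6 of the 31 peaks were called (2 gained, 4 lost) and 49 of the wider list, and the share over all peaks is not given here. With 18 to 48 reads in a median peak, changes within the intervals given for peaks not called could not be told from no change.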
